A study of Mus musculus with 16 samples.

Results

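The genes described here are 9 costimulatory receptors and ligands of T cells, Cd28, Icos, Cd27, Tnfrsf4, Tnfrsf9, Tnfrsf18, Cd40lg, Tnfsf8 and Tnfsf14, which were taken by name, with earlier results of these data known. All 9 were listed in each of the 9 CD8 T cell matrices, which together list 32285 genes, 16243 of them in every matrix. The matrices hold 72639 cells from 32 libraries, of which 5040 cells had a Cd4 UMI (a UMI is 1 counted RNA molecule) and 67599 had none. Levels below are a gene's UMIs per 1000000 UMIs (CPM), summed over the cells without a Cd4 UMI in 1 library, unless another class of cell is named.

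Accepted grafts were kidneys of DBA/2J mice in C57BL/6J (B6) recipients, which keep such kidneys without immunosuppression, and were taken at 1 week (3 libraries), 3 weeks (5 libraries) and 24 weeks (3 libraries) with the recipient spleen at the same times. Rejecting grafts were B6 kidneys in DBA/2J recipients at 1 week (2 libraries), with the recipient spleen (3 libraries), and naive B6 spleens without a transplant gave 5 libraries. The labels give strain C57BL/6J and genotype WT for every sample, the mice were male, and both native kidneys of recipients were removed. Viable CD45+ cells, leukocytes of any kind, were sorted and the CD8 T cells were set apart by the authors afterwards, so rejection and acceptance differ here in donor and recipient strain as well as in outcome, and these cannot be told apart.

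A T cell that meets antigen through its receptor also reads costimulatory signals. CD28 and its relative ICOS belong to the immunoglobulin family, CD28 binding CD80 and CD86 and ICOS binding ICOS ligand. CD27, OX40 (Tnfrsf4), 4-1BB (Tnfrsf9) and GITR (Tnfrsf18) belong to the TNF receptor family, which signals through TRAF adaptors to NF-kappaB, and OX40, 4-1BB and GITR are known to rise after activation, while CD27 and CD28 are already present on naive T cells. T cells also carry ligands of this family: CD40 ligand, known mainly from activated CD4 T cells that license dendritic cells and B cells, CD30 ligand (Tnfsf8) and LIGHT (Tnfsf14).

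Several matrices went against their labels. Of the cells of a library, 83.5% to 90.1% had a Cd8a or Cd8b1 UMI in accepted kidney at 1 week and 96.3% to 97.0% at 3 weeks, but 46.2% to 49.2% in the matrix labelled accepted kidney 24 weeks, 41.9% to 49.2% in spleen at 1 week and 44.0% to 51.8% in spleen at 3 weeks. The matrix labelled accepted spleen 24 weeks had 93.4% to 95.3%, naive spleen 95.0% to 97.6% and rejecting kidney 76.6% to 78.1%. Of the cells without a Cd4 UMI, 5207 of 10331 in the 1-week spleen and 144 of 4600 in naive spleen had no CD8 UMI either. Differences between these spleens are thus also differences between mixtures of cells, and values in cells with a CD8 UMI are given beside many of them. The summed level of the T cell markers Cd3e, Cd3d, Cd3g and Trac was 3506 to 5500 CPM in the accepted kidney at 1 and 3 weeks and 5047 to 5277 CPM in the matrix labelled spleen 24 weeks, against 2411 to 2520 CPM in the matrix labelled kidney 24 weeks and 1973 to 2420 CPM in spleen at 1 and 3 weeks. The summed level of 10 kidney parenchyma genes, among them Umod and Slc34a1, was 1.86 to 12.2 CPM in accepted kidney at 1 and 3 weeks, 0.198 to 0.448 CPM in the matrix labelled kidney 24 weeks and 4.12 to 5.44 CPM in that labelled spleen 24 weeks. It was 0 to 4.55 CPM in rejecting spleen and 0 to 0.614 CPM in accepted spleen at 1 and 3 weeks, where only 5 of the 10 genes were listed. The 24-week matrices are therefore called by their labels throughout, and every direction that rests on them is one between labels. In rejecting kidney 0 of 2184 cells had a Cd4 UMI, which allows a share of up to 0.137% by counting error alone, and in rejecting spleen every cell had a CD8 UMI. Both rejecting matrices list 32285 genes and the others 17517 to 19497. Filters before deposit may therefore differ between rejecting and other matrices, and such a difference cannot be told apart from rejection here. Library totals ran from 153266 UMIs in rejecting spleen to 25960721 in accepted kidney at 1 week, and median UMIs per cell from 1631 to 5420. Of 496 pairs of libraries, 269 shared at least 1 cell barcode, at most 21 and at most 1.79% of the smaller library.

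**Figure D1:**
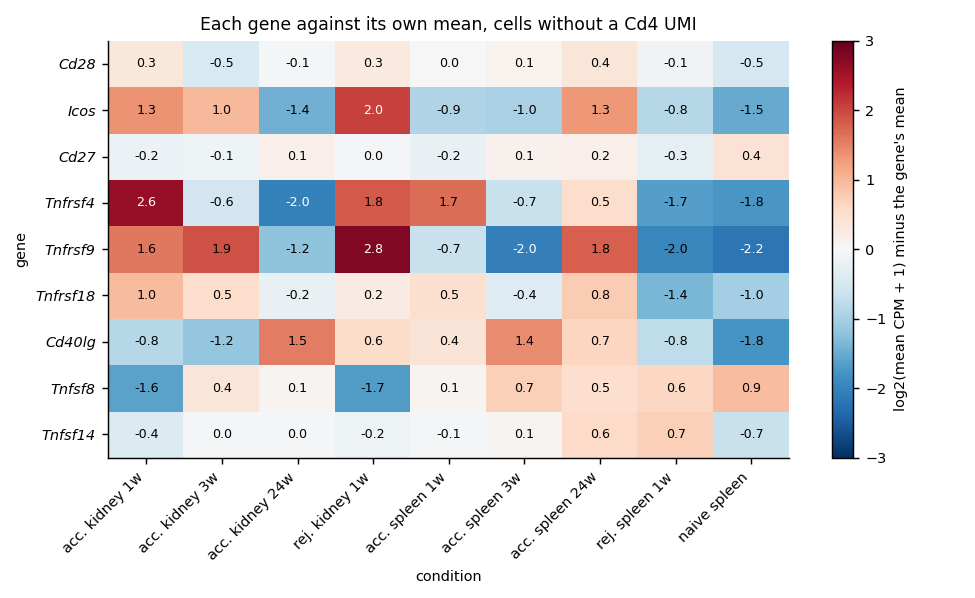
Each square is a gene's log2(mean CPM + 1) in 1 condition, less that gene's own mean over the 9 conditions, in cells without a Cd4 UMI. Icos and Tnfrsf9 are red in both 1-week kidneys, in the 3-week kidney and in the matrix labelled spleen 24 weeks, Tnfrsf4 is highest in both 1-week kidneys and the accepted 1-week spleen, and Tnfsf8 is lowest in both 1-week kidneys.

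Icos, the inducible relative of Cd28 on chromosome 1 (60977927-61000320, GRCm38, plus strand), was higher in kidney than in spleen at 1 and 3 weeks. Accepted kidney libraries held 197, 177 and 169 CPM at 1 week and 107, 180, 135, 131 and 151 CPM at 3 weeks. Recipient spleen libraries held 34.8, 37.9 and 39.4 CPM at 1 week and 32.2, 31.6, 37.7, 32.2 and 45.2 CPM at 3 weeks. No kidney library of these times overlapped a spleen library. Kidney exceeded spleen by 2.28 ± 0.10 on the log2 scale at 1 week (4.84-fold, adjusted p = 7.37e-08, from edgeR's quasi-likelihood F test, the p-values being adjusted by Benjamini-Hochberg across every gene in the fit) and by 1.98 ± 0.13 at 3 weeks (3.94-fold, adjusted p = 9.39e-11). Values after ± are standard errors for log2 fold changes, worked back from the fold change and its F statistic, and SDs over libraries for levels. From 1 to 3 weeks it fell in kidney by 0.37 (SE 0.13, adjusted p = 0.0168), a call that was lost without 1-week replicate 1. The naive spleen had 24.1 ± 2.5 CPM (n = 5). Under the 24-week labels the order was the other way round, with 26.0, 28.2 and 22.0 CPM in kidney and 193, 169 and 164 CPM in spleen (log2 fold change -2.79 ± 0.12, adjusted p = 1.1e-11). Both rejecting kidney libraries, at 376 and 212 CPM, lay above all 3 accepted ones, but the fitted difference of 0.70 ± 0.24 (adjusted p = 0.0312) was 0.00 (adjusted p = 0.998) with TMM scaling, and the call was lost without accepted replicate 1, 2 or 3 or rejecting replicate 1 (log2 fold changes from 0.23 to 0.77).

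Tnfrsf9, the 4-1BB receptor, followed nearly the same order. It stood at 57.9, 46.3 and 40.2 CPM in accepted kidney at 1 week and at 39.7, 55.2, 63.3, 58.8 and 87.5 CPM at 3 weeks. Spleen libraries had 11.5, 9.83 and 6.49 CPM at 1 week and 3.64, 3.60, 1.89, 2.34 and 3.38 CPM at 3 weeks. Kidney and spleen did not overlap at either time, and the gap was 2.38 ± 0.20 at 1 week (adjusted p = 4.92e-06) and 4.33 ± 0.25 at 3 weeks (20.2-fold, adjusted p = 1.73e-11). The level fell in spleen from 1 to 3 weeks by 1.62 on the log2 scale (SE 0.25, adjusted p = 4.79e-05), whereas the kidney difference of 0.35 ± 0.19 did not pass (adjusted p = 0.11). In cells with a CD8 UMI the 1-week spleen had 4.43 ± 0.54 CPM, the 1-week gap was 3.45 (adjusted p = 8.47e-08) and the spleen fall 1.04 (log2 fold change -1.04, adjusted p = 0.0249). In cells without a Cd4 UMI the kidney and spleen changes differed by 1.96 ± 0.39 (adjusted p = 0.000447). The highest levels were in rejecting kidney, 133 and 88.3 CPM, above all accepted libraries (1.20 ± 0.23 at 1 week, adjusted p = 0.00198), yet with TMM scaling the difference was 0.51 with an adjusted p of 0.0877. Libraries labelled kidney 24 weeks had 4.93, 6.15 and 7.05 CPM, and those labelled spleen 24 weeks had 61.9, 48.4 and 56.3 CPM.

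The promoter of Tnfrsf9 is shown because its fold change between kidney and spleen at 3 weeks was the largest of the 9 genes. RefSeq's table for GRCm38.p6 holds 2 start sites for it, both on the plus strand of chromosome 4, each given with 250 bases before and 50 after the start. Letters in capitals match a motif searched on both strands: GGG and TTTCC with any pair of bases between them for NF-kappaB, TGANTCA for AP-1 or TGGAAA for NFAT.

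Tnfrsf9, upstream start, chr4:150919905-150920204: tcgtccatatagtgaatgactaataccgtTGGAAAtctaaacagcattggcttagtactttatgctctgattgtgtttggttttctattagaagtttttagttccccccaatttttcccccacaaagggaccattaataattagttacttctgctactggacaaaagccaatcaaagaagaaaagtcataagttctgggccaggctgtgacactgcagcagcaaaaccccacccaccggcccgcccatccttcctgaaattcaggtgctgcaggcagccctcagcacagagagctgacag

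Tnfrsf9, downstream start, chr4:150927749-150928048: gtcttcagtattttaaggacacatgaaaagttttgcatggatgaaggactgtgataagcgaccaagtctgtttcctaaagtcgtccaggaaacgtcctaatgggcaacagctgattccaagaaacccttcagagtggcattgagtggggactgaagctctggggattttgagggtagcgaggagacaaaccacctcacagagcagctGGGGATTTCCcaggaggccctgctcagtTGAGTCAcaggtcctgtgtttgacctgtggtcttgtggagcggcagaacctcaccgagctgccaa

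The downstream window holds GGGGATTTCC, starting 43 bases before the start site, and TGAGTCA, starting 15 bases before it. Of all 32851 promoters in the table, 1.63% hold the NF-kappaB letters, 7.81% the AP-1 letters and 21.4% the NFAT letters. Only 6 of the 9 genes had an entry, while Cd28, Icos and Cd40lg had none. These matches describe letters and do not show that a factor binds. The 3′ libraries do not tell which start was used.

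Tnfrsf4, the OX40 receptor, was highest in both 1-week kidneys and the accepted 1-week spleen. Accepted kidney held 95.6, 53.4 and 93.3 CPM at 1 week and 4.70, 10.4, 9.17, 7.71 and 7.88 CPM at 3 weeks. The groups were far apart, and the level fell by 3.35 on the log2 scale (SE 0.21, 10.2-fold, adjusted p = 5.86e-09). Spleen held 49.5, 42.8 and 31.5 CPM at 1 week and 4.12, 5.14, 8.62, 7.03 and 12.3 CPM at 3 weeks, a fall by 2.50 (SE 0.22, adjusted p = 1.49e-07). The naive spleen had 2.95 ± 0.58 CPM, 13.9-fold below the recipient spleen at 1 week (3.80 ± 0.18, adjusted p = 1.69e-10). In cells with a CD8 UMI both spleen differences were smaller, 1.88 (adjusted p = 5.69e-06) against naive spleen and -1.17 (adjusted p = 0.00355) from 1 to 3 weeks. The summed level of the regulatory T cell markers Foxp3, Ikzf2, Il2ra and Ctla4 moved with these spleen differences, at 184 to 200 CPM in the 1-week, 118 to 142 CPM in the 3-week and 24.6 to 48.7 CPM in the naive spleen. It did not follow Tnfrsf4 in every comparison. Rejecting kidney had the highest sum, 587 to 764 CPM, but a mean Tnfrsf4 level of 46.9 CPM, against 80.8 CPM in accepted kidney at 1 week. In accepted kidney the sum was 344 to 414 CPM at 1 week (336 to 396 CPM in cells with a CD8 UMI) and 223 to 267 CPM at 3 weeks. The 3-week kidney sum thus lay above that of the 1-week spleen, where Tnfrsf4 was higher. The part of the sum in any of these differences was not tested. The dividing cell markers Mki67 and Top2a summed to 386 to 813 CPM in kidney at 1 week and 56.1 to 69.3 CPM at 3 weeks. The falls in kidney and spleen differed by -0.85 ± 0.37 (adjusted p = 0.0722), and by -2.00 (adjusted p = 0.00142) in cells with a CD8 UMI. Cells with a CD8 UMI and no Cd4 UMI carried 68.7 ± 18 CPM in the 1-week kidney but only 10.8 ± 3.6 CPM in the 1-week spleen, where cells with neither UMI carried 80.1 ± 15 CPM. Cells with neither UMI had 210 ± 32 CPM in the kidney. In both tissues the level was thus higher in cells without a CD8 UMI, by a larger ratio of means in spleen and a larger difference in CPM in kidney, neither of which was tested.

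Tnfrsf4 and Tnfrsf18 are neighbours, 9551 bp apart on the plus strand of chromosome 4, and the promoter of Tnfrsf4 is given because the gene had the largest fold change between 1 and 3 weeks of the 9 genes.

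Tnfrsf4, chr4:156013445-156013744, GRCm38.p6, plus strand, NFAT letters on the minus strand in capitals: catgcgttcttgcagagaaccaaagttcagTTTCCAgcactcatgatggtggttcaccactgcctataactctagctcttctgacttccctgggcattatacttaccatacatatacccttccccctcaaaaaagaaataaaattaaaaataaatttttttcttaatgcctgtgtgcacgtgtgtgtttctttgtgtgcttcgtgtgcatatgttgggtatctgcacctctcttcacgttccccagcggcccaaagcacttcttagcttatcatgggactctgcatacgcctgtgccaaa

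Tnfrsf18, the GITR receptor, changed in the same direction as its neighbour but far less. Accepted kidney held 131, 123 and 132 CPM at 1 week and 64.4, 101, 99.7, 101 and 113 CPM at 3 weeks (fell by 0.43 on the log2 scale, SE 0.13, adjusted p = 0.00857). Spleen went from 96.9, 97.9 and 81.3 CPM at 1 week to 47.8, 44.2, 50.6, 57.6 and 49.5 CPM at 3 weeks (fell by 0.89, SE 0.09, adjusted p = 9.38e-07). No library of the 2 times overlapped in either tissue. The naive spleen, at 32.1 ± 3.8 CPM, and the rejecting spleen, at 24.9 ± 1.9 CPM, had the lowest levels. Rejecting kidney libraries, at 95.1 and 60.4 CPM, both lay under the 3 accepted ones (fell by 0.73, SE 0.21, adjusted p = 0.0162), as they did for Tnfrsf4 at 48.4 and 45.4 CPM (fell by 0.78, SE 0.27, adjusted p = 0.033). The Tnfrsf18 call was lost without accepted replicate 1 or rejecting replicate 2 and the Tnfrsf4 call without accepted replicate 1 or 3 or rejecting replicate 2. The Tnfrsf4 difference was -0.16 (adjusted p = 0.68) once cells with a Mki67 or Top2a UMI were left out and -1.52 (adjusted p = 0.00198) in cells with a CD8 UMI. Those dividing cells made up 26.0% and 68.1% of the cells of the 2 rejecting kidney libraries and 29.7% to 48.3% of the accepted ones.

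Cd28, the main costimulatory receptor of naive T cells, varied less between condition means, on the log2 scale, than Icos, Tnfrsf4, Tnfrsf9 and Tnfrsf18. Its mean level ran from 111 ± 11 CPM in naive spleen to 201 ± 16 CPM in the matrix labelled spleen 24 weeks. In accepted kidney it fell by 0.80 (SE 0.11, adjusted p = 1.12e-05) from 220, 184 and 195 CPM at 1 week to 143, 121, 96.8, 108 and 105 CPM at 3 weeks. Spleen showed no such step, with 157 ± 8.6 and 170 ± 12 CPM, and the changes in the 2 tissues differed by -0.92 ± 0.14 (adjusted p = 3.82e-05). The kidney step was as large in cells with a CD8 UMI (-0.78, adjusted p = 1.3e-05).

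Cd27, a TNF family receptor of naive and memory T cells, was the flattest of the receptors. It was highest in naive spleen at 204, 255, 234, 245 and 285 CPM and lay above the 1-week recipient spleen by 1.59-fold (adjusted p = 6.73e-06), which had 152, 155 and 155 CPM. In all 9 conditions its mean lay between 146 and 245 CPM. In kidney the 3-week and 1-week levels differed by 0.05 ± 0.08 (adjusted p = 0.56) with plain totals and by -0.34 (adjusted p = 0.000945) with TMM scaling.

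**Figure D2:**
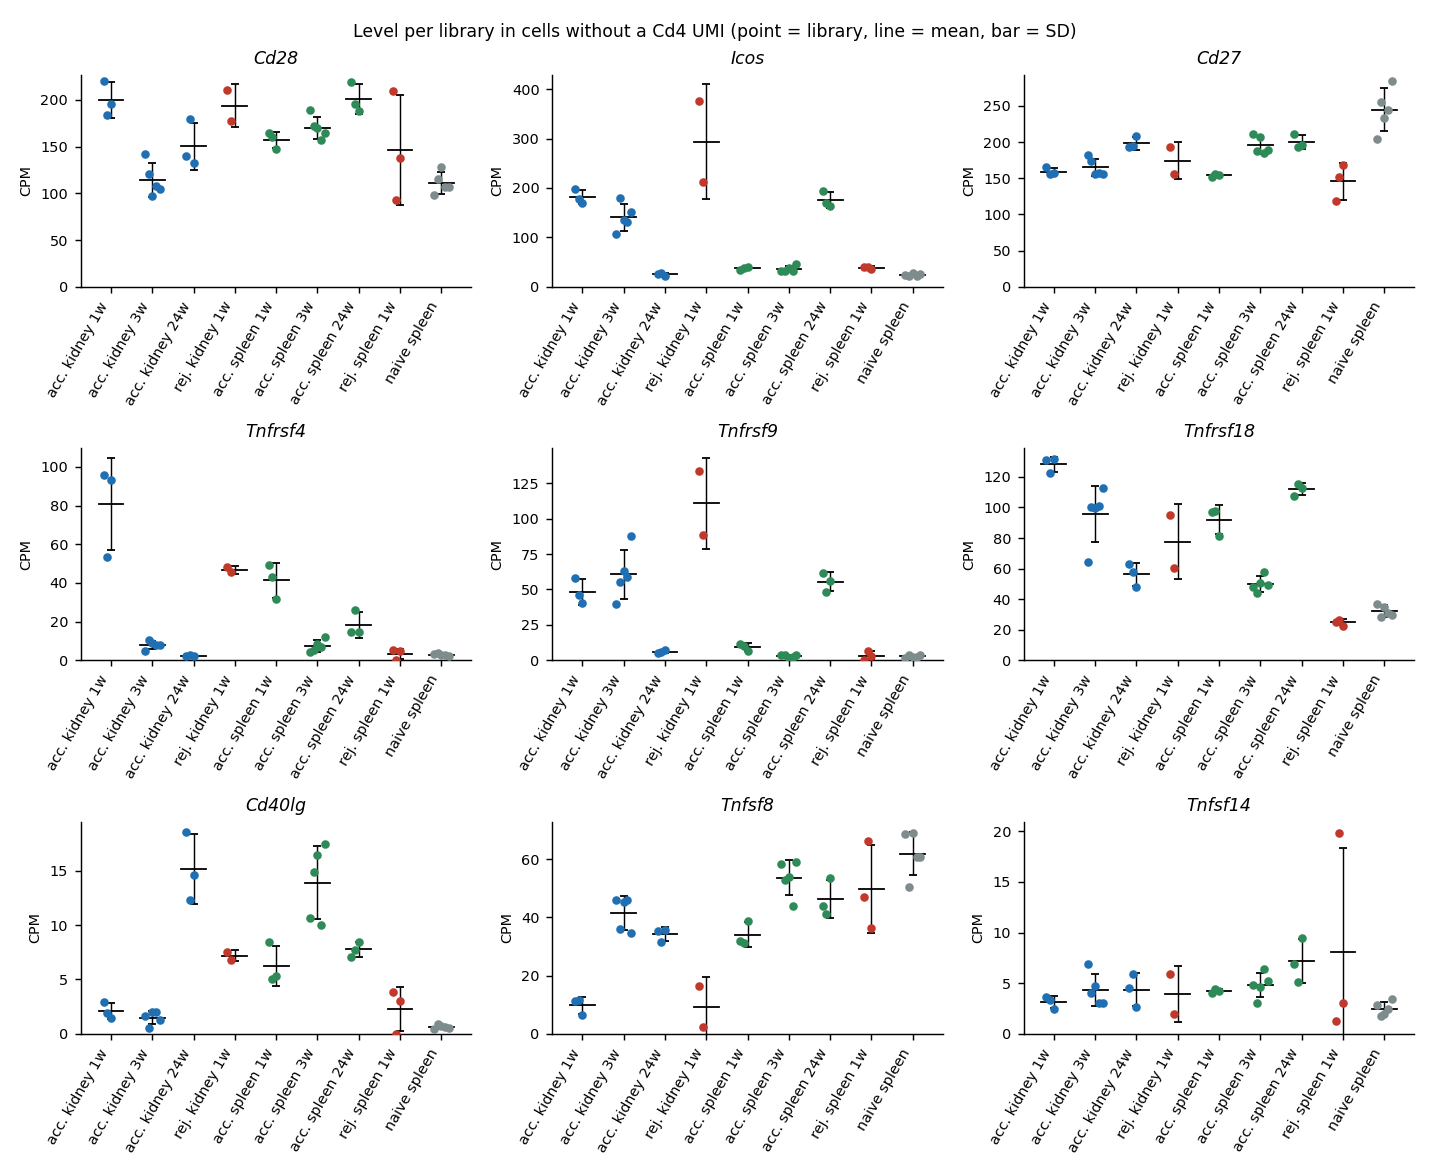
CPM of each gene (y axis, from 0) in every library of the 9 conditions (x axis), in cells without a Cd4 UMI. Points are libraries (accepted kidney blue, accepted spleen green, rejecting red, naive grey), horizontal lines are means and bars are SDs, which end at 0 where they would pass it. Kidney and spleen points of Icos and Tnfrsf9 do not overlap at 1 or 3 weeks, and change places under the 24-week labels.

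Tnfsf8, the CD30 ligand, was lowest in both 1-week kidneys. It stood at 11.4, 11.6 and 6.50 CPM in accepted kidney at 1 week and at 16.4 and 2.27 CPM in rejecting kidney. It rose by 3 weeks to 45.9, 35.8, 45.2, 45.9 and 34.5 CPM in accepted kidney (2.12 ± 0.18, 4.34-fold, adjusted p = 1.01e-07). The 1-week spleen had 32.0, 31.1 and 38.9 CPM and lay above every 1-week kidney library (kidney against spleen -1.82 ± 0.20, adjusted p = 3.37e-05). The naive spleen was highest, at 68.5, 50.5, 68.8, 60.8 and 60.7 CPM, and the recipient spleen at 1 week lay below it (-0.86 ± 0.10, adjusted p = 2.5e-06). The low level at 1 week was therefore seen in kidney more than in spleen, and the rise to 3 weeks was larger in kidney by 1.46 ± 0.22 (adjusted p = 2.37e-05). In cells with a CD8 UMI the kidney rise was 2.35 (adjusted p = 1.42e-08). Its promoter, chr4:63861235-63861534 on the minus strand, held none of the 3 motifs.

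Cd40lg, the CD40 ligand, depended on which cells were counted. Without a Cd4 UMI, accepted kidney had 2.90, 1.93 and 1.47 CPM at 1 week, spleen had 8.41, 5.04 and 5.32 CPM, and the gap was -1.62 ± 0.30 (adjusted p = 0.000897). At 3 weeks kidney had 1.63, 0.519, 2.04, 2.00 and 1.27 CPM and spleen 10.7, 14.9, 16.4, 10.0 and 17.5 CPM (-3.20 ± 0.25, adjusted p = 1.2e-09). In cells with a CD8 UMI and no Cd4 UMI, however, the means were 0.933 CPM in kidney and 1.03 CPM in spleen at 1 week and 0.985 CPM in kidney and 2.00 CPM in spleen at 3 weeks, and the gene did not pass the filter on low counts in either comparison. Cells with neither a CD8 nor a Cd4 UMI held 13.1 ± 4.1 CPM in spleen at 1 week and 36.4 ± 9.6 CPM at 3 weeks. Among Cd4-negative spleen cells the level was thus higher in those that lacked a CD8 UMI too. Under the 24-week labels the direction turned over with the class: kidney exceeded spleen by 0.96 ± 0.20 (adjusted p = 0.000686) in cells without a Cd4 UMI and lay below it by 2.14 (log2 fold change -2.14, adjusted p = 0.000183) in cells with a CD8 UMI. In these CD8-positive cells the matrix labelled spleen 24 weeks had 6.30 ± 0.87 CPM, the highest of the 9 conditions.

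Cd40lg was also higher in the 1-week spleen than in naive spleen, where libraries without a Cd4 UMI had 0.436, 0.860, 0.742, 0.616 and 0.528 CPM (3.28 ± 0.32, adjusted p = 2.6e-07). It was too low to be tested there in cells with a CD8 UMI. Rejecting kidney libraries held 7.57 and 6.81 CPM, above all 3 accepted ones (1.81 ± 0.38, adjusted p = 0.0033), and the difference did not pass in cells with a CD8 UMI (0.97, adjusted p = 0.209). In the same comparison with naive spleen, Tnfrsf9 was higher by 1.81 ± 0.25 (adjusted p = 1.24e-05) and Tnfrsf18 by 1.51 ± 0.09 (adjusted p = 1.83e-09), and both passed in cells with a CD8 UMI as well, by 0.95 and 0.96. Icos was higher by 0.63 ± 0.10 (adjusted p = 2.97e-05), but by 0.15 (adjusted p = 0.282) in cells with a CD8 UMI.

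Tnfsf14, which encodes LIGHT, was low everywhere. Its mean ran from 2.49 ± 0.68 CPM in naive spleen to 8.05 ± 10 CPM in rejecting spleen, where the libraries had 1.27, 19.9 and 3.03 CPM. It passed the test in 3 of the 9 pairwise comparisons, and 2 of these, between the 24-week and 3-week spleen labels (0.60 ± 0.26, adjusted p = 0.0473) and between the 24-week labels (-0.75 ± 0.30, adjusted p = 0.0483), lost the call in 6 of 8 and 4 of 6 fits that left out 1 library, but were 1.49 (adjusted p = 0.000582) and -1.31 (adjusted p = 0.00255) in cells with a CD8 UMI. The third, the 1-week spleen against naive spleen, was 0.76 ± 0.24 (adjusted p = 0.0122), and 0.20 (adjusted p = 0.609) in cells with a CD8 UMI. The share of cells with a Tnfsf14 UMI at 1000 UMIs per cell was 0.0952% to 0.507% over the 9 conditions. Among all CD45+ cells thinned to the same depth, myeloid cells had 0.592% in rejecting kidney (median 2455 UMIs per cell before thinning) and 1.77% in naive spleen (median 5433), and B cells of naive spleen 0.0186% (median 2739). The CD8 matrices thus lay above the B cells and below the myeloid cells.

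Shares of cells were compared after thinning every cell to 1000 UMIs, which left out 464 of 72639 cells. An Icos UMI was then seen in 16.0% ± 1.5 of accepted kidney cells at 1 week, 11.5% ± 2.3 at 3 weeks and 22.2% ± 7.8 in rejecting kidney, against 3.50% ± 0.24 and 3.52% ± 0.37 in spleen at 1 and 3 weeks and 2.20% ± 0.29 in naive spleen. Unthinned shares were 35.8%, 22.4%, 37.2%, 8.94%, 10.8% and 9.65% in that order. Accepted and rejecting kidney lay above all 3 spleen groups at both depths, whereas naive spleen lay below the 1-week spleen after thinning and above it without. In B cells of naive spleen, thinned likewise from a median of 2739 UMIs per cell, the share was 0.0260% (7 of 26877 cells). A Tnfrsf9 UMI was found in 3.13% ± 0.25 of accepted kidney cells at 1 week, 5.04% ± 1.3 at 3 weeks and 8.02% ± 0.93 of rejecting kidney cells (unthinned 10.2%, 10.7% and 16.3%). In spleen the shares were 0.710% ± 0.28 at 1 week and 0.241% ± 0.14 at 3 weeks, beside 0.448% of myeloid cells in rejecting kidney and 0.0223% of B cells and 0.0887% of myeloid cells (1 cell) in naive spleen, all thinned to the same depth. The 3-week spleen share lay below the first of these and above the other two. For Tnfrsf4 the shares were 4.93% ± 1.5 in 1-week and 0.878% ± 0.20 in 3-week accepted kidney (unthinned 11.7% and 1.74%), with 0.0320% of rejecting kidney myeloid cells and 0.167% of naive spleen B cells. For Tnfsf8 they were 0.968% ± 0.25 and 3.86% ± 0.51 (unthinned 2.70% and 8.70%), with the same 0.0320%. Levels and thinned shares of Tnfrsf4 and Tnfsf8 moved in the same direction between these groups. At least 2 of the 9 genes were seen in 16.0% ± 1.9 of accepted kidney cells at 1 week, 10.6% ± 0.79 at 3 weeks, 9.22% ± 0.65 of spleen cells at 1 week and 5.61% ± 0.64 of naive spleen cells. In cells with a CD8 UMI the last 2 shares were 5.97% ± 0.95 and 5.43% ± 0.63.

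Over the comparisons, counts of called genes are read against the share of all genes called, since most genes differed. In accepted kidney 3 weeks against 1 week, 5 of 9 passed (1 higher, 4 lower) and 74.8% of all genes tested did, and in spleen 6 of 9 (3 higher, 3 lower) against 53.9%. In kidney against spleen, 7 of 9 passed at 1 week (5 higher, 2 lower) against 51.0%, and 7 of 9 at 3 weeks (3 higher, 4 lower) against 66.5%. In the 1-week spleen against naive spleen all 9 passed (7 higher, 2 lower) against 59.4%, and 6 of 9 did (4 higher, 2 lower) in cells with a CD8 UMI, against 57.0%. In rejecting against accepted kidney 5 of 9 passed (3 higher, 2 lower) against 59.6%, and 3 of 9 in cells with a CD8 UMI, against 58.6%. Between the 24-week and 3-week kidney labels 8 of 9 passed (3 higher, 5 lower) against 72.0% and 5 of 9 in cells with a CD8 UMI against 71.1%, between the spleen labels of these times 7 of 9 (6 higher, 1 lower) against 59.4%, and between the 24-week kidney and spleen labels 8 of 9 (1 higher, 7 lower) against 52.1%. The change from 1 to 3 weeks differed between kidney and spleen for 6 of 9 against 38.6%. With so many genes called, these shares do not set the 9 genes apart from the rest, and the sizes of change carry the description. The share of all genes whose libraries did not overlap is not reported here. A lack of overlap thus does not set a gene apart either.

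Between the 24-week and 3-week kidney labels the receptors Tnfrsf9, Icos, Tnfrsf4 and Tnfrsf18 were lower, by log2 fold changes of -3.31 ± 0.26, -2.47 ± 0.16, -1.80 ± 0.30 and -0.77 ± 0.15, and Tnfsf8 by -0.28 ± 0.12. With TMM scaling Tnfrsf18 was at -0.35 (adjusted p = 0.0526) and Tnfsf8 at 0.15 (adjusted p = 0.275), and Tnfsf8 lost the call in 6 of 8 fits that left out 1 library, those without 3-week replicate 1, 3 or 4 or any 24-week replicate. Cd40lg was higher by 3.32 ± 0.26, but by 0.47 (adjusted p = 0.462) in cells with a CD8 UMI, and Cd28 and Cd27 by 0.39 ± 0.12 and 0.27 ± 0.07. Cd28 was at 0.01 (adjusted p = 0.968) in cells with a CD8 UMI and lost the call without 24-week replicate 2. Between the spleen labels the same 4 receptors were higher, Tnfrsf9 18.4-fold and, on the log2 scale, Icos by 2.30 ± 0.11, Tnfrsf4 by 1.29 ± 0.26 and Tnfrsf18 by 1.17 ± 0.09. These 2 comparisons rest on the 24-week labels.

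The median gene did not stay at 0 in these fits, because plain totals were used. Its log2 fold change was 0.42 in kidney 3 weeks against 1 week, 0.17 in spleen, -0.45 and -0.02 between the 24-week and 3-week labels of kidney and spleen, 0.02, 0.23 and -0.18 in kidney against spleen at the 3 times in order, 0.72 in rejecting against accepted kidney and -0.13 in the 1-week spleen against naive spleen. The medians of the 9 genes were -0.37, 0.11, -0.28, 0.60, 0.34, -0.12, -0.75, 0.13 and 0.76 in the same order. Relative to the median gene, Tnfrsf4 lay at -3.77 and Tnfsf8 at 1.70 in kidney 3 weeks against 1 week. In rejecting against accepted kidney, Icos lay at -0.02, Tnfrsf9 at 0.49, Tnfrsf18 at -1.45 and Tnfrsf4 at -1.50. The direction of Icos against the median gene was thus not that against 0, and the differences of Tnfrsf4 and Tnfrsf18 were larger.

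**Figure D3:**
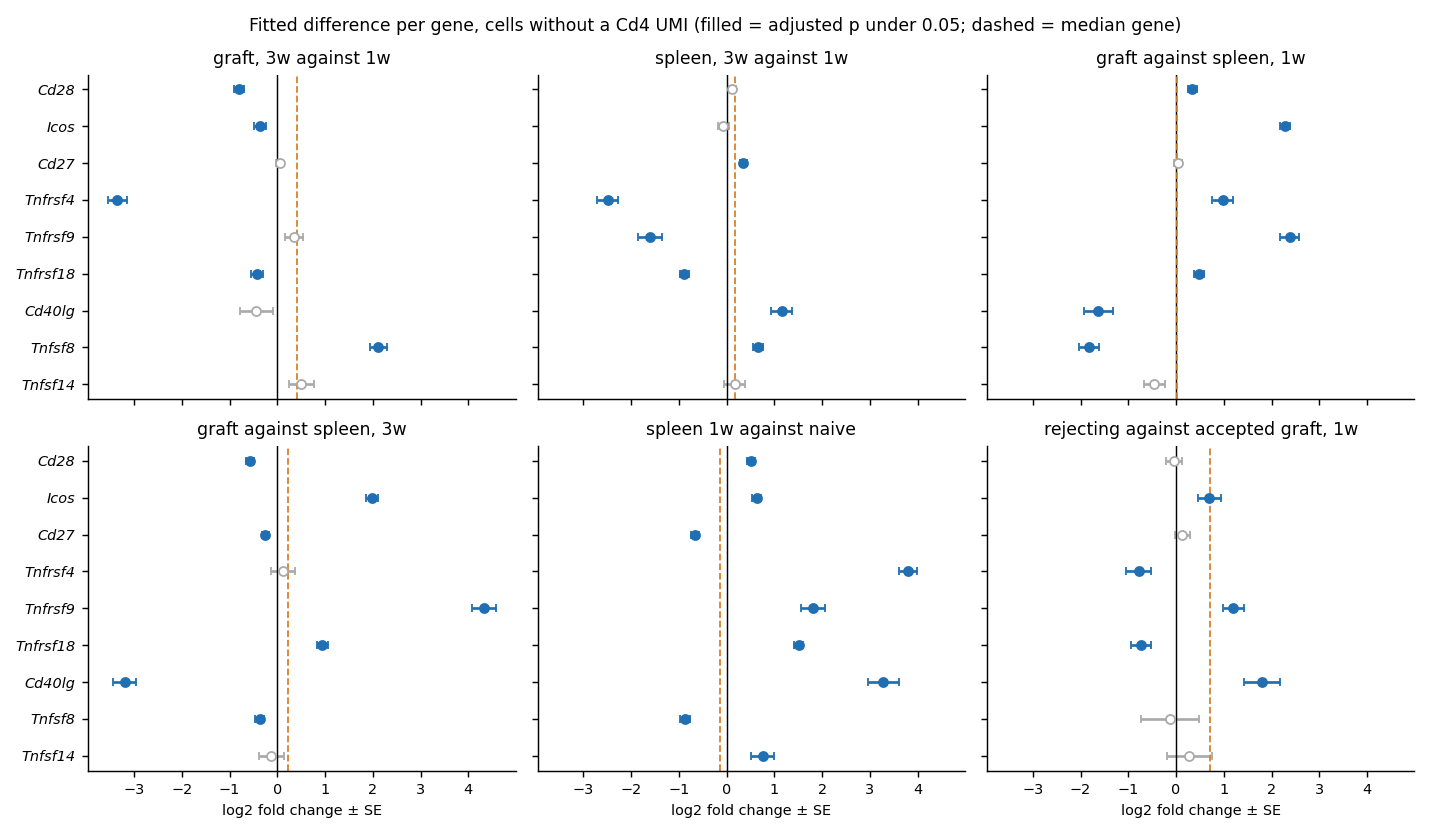
Fitted log2 fold changes with their standard errors (x axis) of the 9 genes (y axis) in 6 comparisons, in cells without a Cd4 UMI. Filled points passed an adjusted p of 0.05, and the dashed line marks the median of all genes tested, which lies at 0.72 in rejecting against accepted kidney. Tnfrsf4 and Tnfsf8 move furthest from 1 to 3 weeks in the graft, and in graft against spleen Icos and Tnfrsf9 lie above 0 and Cd40lg below it at both times.

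Cells with a Cd4 UMI were compared with those without one inside the same libraries. In the 1-week kidney 8 of 9 genes were higher in Cd4-positive cells and none lower, while 15.0% of all genes were called. Tnfrsf4 stood at 421, 370 and 389 CPM in Cd4-positive cells, against 95.6, 53.4 and 93.3 CPM in the others (2.30 ± 0.07, 4.91-fold, adjusted p = 1e-56). That p rests on a spread partly shared across genes, and in fits that left out 1 library it ran from 5.4e-176 to 7.77e-13. Cd40lg stood at 11.4, 18.5 and 12.7 CPM against 2.90, 1.93 and 1.47 CPM (2.78 ± 0.31, adjusted p = 1.22e-12). The classes did not overlap for either gene. Tnfrsf18 was 2.07-fold and Icos 1.64-fold higher, with adjusted p of 3.66e-29 and 6.5e-19. The differences of Cd27 (0.21 ± 0.07, adjusted p = 0.0176) and Tnfrsf9 (0.33 ± 0.11, adjusted p = 0.0267) were small and lost with TMM scaling. In the 1-week spleen 7 of 9 were higher, with 19.2% of all genes called, Tnfrsf4 by 1.37 ± 0.09 (adjusted p = 1.07e-17) and Icos by 1.08 ± 0.10 (adjusted p = 6.81e-13). In the 3-week spleen 4 of the 8 genes tested were higher, with 13.3% of all genes called, Cd40lg most, by 1.92 ± 0.14 (adjusted p = 4.39e-18), then Tnfrsf4 by 1.10 ± 0.23, Cd28 by 0.43 ± 0.06 and Icos by 0.42 ± 0.13. This Icos call was lost without replicate 1 or replicate 5.

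In the 3-week kidney, with only 255 Cd4-positive cells, 3 of 9 genes were higher and 0.629% of all genes were called. Of the Cd4-positive cells of its libraries, 15 of 38, 10 of 48, 22 of 71, 19 of 49 and 15 of 49 had no CD8 UMI. Tnfrsf4 was higher by 2.46 ± 0.38 (adjusted p = 2.65e-07), Cd40lg by 3.50 ± 0.67 (adjusted p = 0.000146) and Icos by 0.54 ± 0.14 (adjusted p = 0.02). The Icos call was lost with TMM scaling (0.40, adjusted p = 0.137) and in 4 of 5 fits that left out 1 library, those without replicate 2, 3, 4 or 5. DESeq2 called none of the 9 there, with 4 at an unadjusted p under 0.05, and gave no adjusted p for Tnfrsf4 and Cd40lg. In the matrix labelled kidney 24 weeks 3 of 9 were higher, with 6.36% of all genes called, among them Cd40lg at 51.8, 37.4 and 67.5 CPM against 18.6, 12.3 and 14.6 CPM (1.83 ± 0.16, adjusted p = 9.56e-13). In the matrix labelled spleen 24 weeks, with 80 Cd4-positive cells, 3 of 9 were higher and 0.528% of all genes were called, but without replicate 2 or replicate 3 none of the 9 was called, with 4 at an unadjusted p under 0.05 in each case. Of the Cd4-positive cells of its libraries, 4 of 22, 9 of 28 and 9 of 30 had no CD8 UMI. Cd40lg was called in all 6 conditions tested, Tnfrsf4 in 5 and Tnfsf14 in none. Some cells without a Cd4 UMI may be CD4 T cells in which no Cd4 molecule was counted, and their number was not tested.

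**Figure D4:**
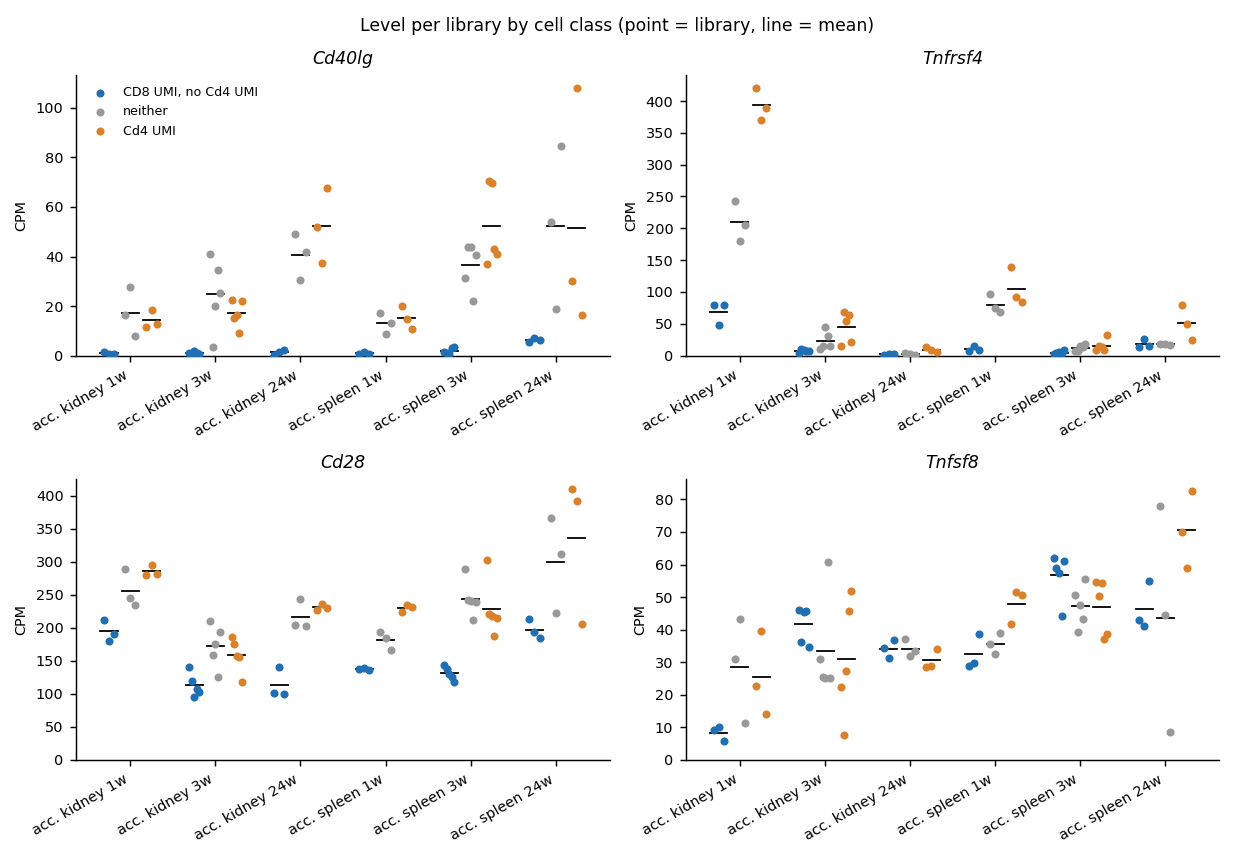
CPM (y axis, from 0) of Cd40lg, Tnfrsf4, Cd28 and Tnfsf8 in the libraries of the 6 accepted conditions (x axis), with cells with a CD8 UMI and no Cd4 UMI in blue, cells with neither in grey and cells with a Cd4 UMI in orange. Points are libraries and lines are means. Cd40lg is at most 6.30 CPM on average in the blue class, and Tnfrsf4 reaches a mean of 394 CPM in the orange class of the 1-week kidney.

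Foxp3 is the defining factor of regulatory T cells, and cells with a Foxp3 UMI had Tnfrsf4 and Tnfrsf18 UMIs more often. Among cells without a Cd4 UMI, 422 of 15618 had a Foxp3 UMI in the 1-week kidney, and 27.0% ± 4.2 of them had a Tnfrsf4 UMI at 1000 UMIs per cell, against 4.32% ± 1.5 of the rest. In the 1-week spleen the shares were 27.6% ± 5.5 of 390 cells and 2.08% ± 0.45 of the rest, and in the rejecting kidney 23.9% ± 4.3 of 50 cells and 2.99% ± 0.11. Every library had the higher share in its Foxp3-positive cells in these 3 conditions. Tnfrsf18 was seen in 25.2% ± 4.2 against 11.1% ± 0.26 in the 1-week kidney and in 27.9% ± 5.3 against 8.13% ± 0.82 in the 1-week spleen. Tnfsf8 was seen in 0.427% ± 0.74 against 0.982% ± 0.25 in the kidney, with 1 cell behind the first value, and in 0.828% ± 0.93 against 3.48% ± 0.62 in the spleen. Restricting the 1-week kidney to cells with a CD8 UMI left Tnfrsf4 at 23.7% ± 4.7 of 337 Foxp3-positive cells and 3.53% ± 1.4 of the others. Among kidney cells without a Foxp3 UMI, Tnfrsf4 was seen in 4.32% ± 1.5 at 1 week and 0.871% ± 0.20 at 3 weeks. Some of these may be regulatory T cells in which no Foxp3 molecule was counted, and their part in the fall of Tnfrsf4 was not tested. These shares are descriptions without a test.

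**Figure D5:**
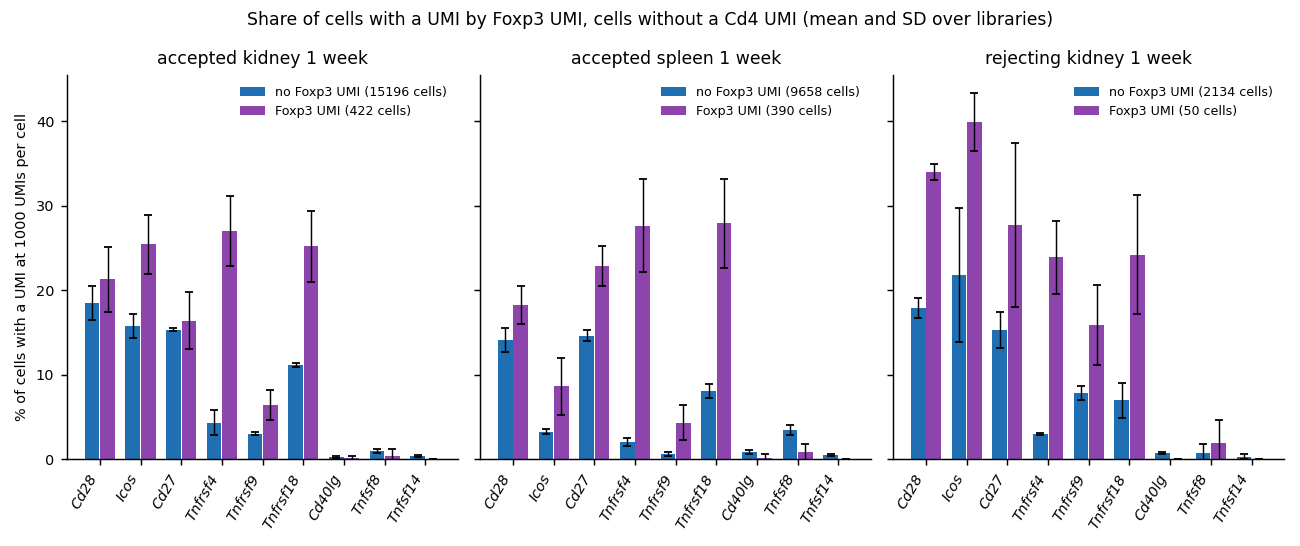
Share of cells with a UMI of each gene after thinning to 1000 UMIs (y axis, percent, from 0) in cells with (purple) and without (blue) a Foxp3 UMI, in 3 conditions of 1 week. Bars are means over libraries and whiskers are SDs. Tnfrsf4 is at 27.0% against 4.32% in the accepted kidney.

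Within single cells without a Cd4 UMI, Tnfrsf4 and Tnfrsf18 were seen together more often than their separate shares would give. In the 1-week spleen the observed number of cells with both was 4.11 times the product of the shares (3.90 to 4.27 over libraries), and in the 1-week accepted kidney 1.84 times (1.13 to 2.05). The pair Tnfrsf4 and Tnfrsf9 was at 2.15 times in the 1-week kidney (1.78 to 3.28), and Tnfrsf9 and Tnfrsf18 at 1.39 times there and 1.39 times in the 3-week kidney. Cd28 and Icos lay between 1.24 and 1.44 in the 6 conditions with at least 20 cells expected. Icos and Tnfrsf9 were at 0.93 in the 1-week kidney (0.71 to 1.23), 1.24 in the 3-week kidney (1.14 to 1.57) and 0.60 in the matrix labelled spleen 24 weeks (0.27 to 0.75). These ratios were not tested and are not given for cells with a CD8 UMI. Before thinning, 5207 of 10331 such cells of the 1-week spleen and 2089 of 15618 of the 1-week kidney lacked a CD8 UMI. The part of this mixture of cells in the ratios was not tested.

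Across the 9 conditions, over which Pearson's r is given as a description, Icos and Tnfrsf9 had r = 0.96 in log2(mean CPM + 1). Icos was most like Rgs16, Aopep and Smim3 (each r = 0.99), Tnfrsf9 like Cpd (r = 0.99), Prxl2a and Smim3 (both 0.98), and Tnfrsf4 like Arpc1a (0.95), Fam216a (0.93) and Prelid3b (0.92), among 7588 genes searched. Tnfrsf18 was most like Vamp8, Mif4gd and Unc119 (0.99, 0.99 and 0.98) and Tnfsf8 like Hid1, Dnttip2 and Rpl36 (0.97, 0.96 and 0.96). For Cd27 the closest were Kat8, Lman2l and Hspe1 (0.81, 0.81 and 0.80), for Cd28 Hnrnpa1, 4921524J17Rik and Maf (0.77, 0.77 and 0.76), for Cd40lg Tmem64, Klra7 and Gm10125 (0.78, 0.74 and 0.68), and for Tnfsf14 Dnajb9, Amz2 and Ighg1 (0.91, 0.91 and 0.86). Points of these correlations share libraries, depth and tissue, and the highest r among many genes is high by selection.

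Of the TRAF and NF-kappaB genes that act downstream, 10 of the 15 tested were higher and 2 lower in kidney at 3 weeks against 1 week (median log2 fold change 0.51, all genes 0.42), beside 74.8% of all genes called. Nfkbia, an inhibitor of NF-kappaB, fell by 1.83 (SE 0.10) and Map3k14, the NIK kinase, rose by 1.02 (SE 0.11). In kidney against spleen at 1 week 5 were higher and 2 lower (median -0.08, all genes 0.02), beside 51.0% of all genes called, with Rel, an NF-kappaB subunit, higher by 1.58 (SE 0.12) and Traf5 lower (-1.03 ± 0.13). At 3 weeks 5 were higher and 4 lower, beside 66.5%, with Tnfaip3, an NF-kappaB brake, higher by 0.99 (SE 0.10). In rejecting against accepted kidney 8 were higher and 2 lower (median 0.83, all genes 0.72), beside 59.6%, with Traf3 at 3.05 ± 0.18 and Nfkbia at -1.87 ± 0.21. Their medians lay near those of all genes in each of these comparisons for which both are given.

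Of the 10 genes of CD28 proximal signalling, 8 were higher and none lower in kidney at 3 weeks against 1 week (median 0.92, all genes 0.42), beside 74.8% of all genes called, led by Pik3cd, a PI3 kinase subunit (1.62 ± 0.11). In spleen 9 were higher and 1 lower (median 0.51, all genes 0.17), beside 53.9% of all genes, with the adaptor Grap2 at 1.05 ± 0.08. In rejecting against accepted kidney 9 were higher and none lower (median 1.53, all genes 0.72), beside 59.6% of all genes. The receptor Cd28 itself fell with time in the kidney and did not pass the test in rejecting kidney with plain totals (-0.04 ± 0.17, adjusted p = 0.846), but was lower with TMM scaling (-0.74, adjusted p = 0.00519).

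Among 9 other costimulatory or co-inhibitory receptors, Tnfrsf1b, a TNF receptor, exceeded its splenic level in the kidney 6.79-fold at 1 week and 10.7-fold at 3 weeks, and Tnfrsf25, the DR3 receptor, was 13.3-fold and 24.1-fold lower there. Of the cells behind these folds, 2089 of 15618 in kidney and 5207 of 10331 in spleen lacked a CD8 UMI at 1 week. At 3 weeks it was 638 of 21951 and 1927 of 4582. The part of this mixture in the folds was not tested, and the list is not given for cells with a CD8 UMI. Slamf6 fell 9.59-fold in kidney from 1 to 3 weeks (log2 fold change -3.26 ± 0.13). Ctla4, the inhibitory rival of CD28 and also a marker of regulatory T cells, was 9.73-fold higher in the 1-week spleen than in naive spleen. Of the list, 1 rose and 4 fell in kidney at 3 weeks, 3 were higher and 5 lower in kidney against spleen at both 1 and 3 weeks, and 5 were higher and 3 lower in the 1-week spleen against naive spleen, beside 74.8%, 51.0%, 66.5% and 59.4% of all genes called in these 4 comparisons.

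Partners of the 9 genes are mostly made by antigen-presenting cells. Of 11, 7 were tested in kidney against spleen at 1 week (3 higher, 2 lower, beside 51.0% of all genes called), with Tnfsf9, the 4-1BB ligand, 4.72-fold higher and Cd40 17.7-fold lower, at 0.351 ± 0.13 CPM in kidney and 6.04 ± 2.5 CPM in spleen. At 3 weeks 5 were tested (3 higher, 1 lower, beside 66.5%), and Cd80 was higher in kidney, at 2.26 to 5.83 CPM against 0 to 0.670 CPM in spleen, a level so near 0 that no fold is given. Cd80 was 5.29-fold higher in rejecting than in accepted kidney (log2 fold change 2.40 ± 0.37), where 4 of 7 were higher and none lower, beside 59.6%. That fold rests on plain totals, with which the median gene lay at 0.72. Cd40 was 6.37-fold higher in the 1-week spleen than in naive spleen, which had 0.945 ± 0.68 CPM. The summed level of the B cell markers Cd79a, Cd79b and Ms4a1 moved with Cd40, at 8.58 to 9.45 CPM in kidney and 428 to 897 CPM in spleen at 1 week and 24.1 to 48.7 CPM in naive spleen. The summed level of the myeloid markers Lyz2, Tyrobp, Fcer1g, Csf1r and Cst3 moved with the 3-week difference, at 491 to 917 CPM in kidney and 88.7 to 128 CPM in spleen. In cells with a CD8 UMI it was much the same, at 496 to 913 CPM and 63.3 to 92.7 CPM. At 1 week it overlapped between rejecting kidney (413 to 422 CPM) and accepted kidney (336 to 427 CPM), where Cd80 differed. The part of either sum in the partner genes was not tested.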

How the data were processed

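Deposited counts were used as they stand: the authors made UMI counts per gene and cell with Cell Ranger on mm10 from Chromium 3′ libraries, split out the CD8 T cells, and deposited 1 count matrix per tissue and time. They filtered cells by UMIs, mitochondrial content and number of genes, with cutoffs not given in the sources used here. Background shares came from B and myeloid cells of the deposited counts of all CD45+ cells in rejecting kidney and naive spleen. Cells were assigned to libraries by the tag of their barcode. The numbers of tags in accepted conditions equal the numbers of mice that the methods give, but no source ties a tag to a mouse. The p-values and standard errors thus rest on the spread between libraries, which may be technical, and not on a known spread between mice. The fit also shares part of this spread across genes, so they can be smaller than the libraries of 1 gene alone would give. Intervals and count floors cover counting error only. Counts were summed per library over cells without a Cd4 UMI, filtered with filterByExpr and fitted with edgeR 4.0.16 (quasi-likelihood test, plain library totals, Benjamini-Hochberg adjustment over all genes tested, threshold 0.05). Cd4-positive and Cd4-negative cells were compared with library as a block where every library had at least 20 Cd4-positive cells. Shares used cells thinned to 1000 UMIs (seed 1), with no removal of doublets. DESeq2 1.42.0, R 4.3.3 and Python 3.11.15 were also used. The fits were also run on simulated counts in which a small set of genes changed. These had the same dispersion for all genes and no shift of the median gene, so they do not test plain totals where that gene moved. Gene positions are GENCODE M21 on GRCm38, and promoters are from RefSeq. The 9 genes and the 4 other lists were chosen with earlier results of these data known. By the rule for named genes all 9 were fitted in every comparison, and the text gives their counts and the values of those it describes. From each other list the calls in each direction are counted and the called gene with the largest absolute log2 fold change in a direction may be named, which the text does for a selection. Rejecting spleen entered no test. Deposited files of all accepted CD45 cells were not used here. Some list and marker genes are not reported here.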

Additional observations from a re-analysis of the deposited data

Results flagged for a closer look

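For 6 genes the change from 1 to 3 weeks differed between accepted kidney and recipient spleen by a test of the difference itself (kidney minus spleen, log2). It was -0.92 for Cd28, -0.30 for Cd27, 1.96 for Tnfrsf9, 0.46 for Tnfrsf18, -1.58 for Cd40lg and 1.46 for Tnfsf8, with adjusted p of 3.82e-05, 0.0265, 0.000447, 0.0445, 0.00529 and 2.37e-05. By the same test 38.6% of all genes tested (4691 of 12141) were called, so a call alone does not set a gene apart. Tnfrsf18 did not pass with TMM scaling (0.26, adjusted p = 0.259), and neither Tnfrsf18 (0.28) nor Cd40lg (-0.78) passed in cells with a CD8 UMI. Leaving out 1 library lost the Tnfrsf18 call in 13 of 16 fits and the Cd27 call in 2 of 16.

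The Tnfrsf18 level of 1 accepted kidney library at 3 weeks, 64.4 CPM, stood apart from the other 4, which lay between 99.7 and 113 CPM. It was the only one of 27 groups of 5 libraries with such a gap, and chance flags about 1 group in 20.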

How the results depend on the processing

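Of 1859 refitted log2 fold changes of the 9 genes, 1684 gave the same call, with the same direction where called, 132 lost and 31 gained the call, and 12 turned over with a call on at least 1 side. DESeq2 gave no adjusted p for 5 further values, which are counted as neither. The counts of called genes changed by more than 1.5 times as follows. Between the 24-week and 3-week kidney labels it was 5 in cells with a CD8 UMI, against 8. Between the 24-week kidney and spleen labels it was 5 with TMM scaling, with DESeq2 and with intron length taken out, against 8. In rejecting against accepted kidney it was 3 in cells with a CD8 UMI, against 5. For Cd4-positive against Cd4-negative cells it was 0 with DESeq2 and 1 between strict classes (Cd4 UMI and no CD8 UMI against CD8 UMI and no Cd4 UMI) in the 3-week kidney, against 3, 4 with DESeq2 in the 1-week spleen, against 7, and 1 with TMM scaling and 0 with DESeq2 and with strict classes in the matrix labelled spleen 24 weeks, against 3. In the last, 5 and 1 genes had an unadjusted p under 0.05 with DESeq2 and strict classes.

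Leaving out 1 library gave counts of 4 to 6 in kidney 3 weeks against 1 week, 6 to 8 between the 24-week and 3-week kidney labels, 6 in spleen 3 weeks against 1 week, 5 to 8 between the spleen labels, 6 to 7, 7 and 6 to 8 in kidney against spleen at the 3 times, 2 to 5 in rejecting against accepted kidney, 9 in the 1-week spleen against naive spleen and 4 to 6 for the difference between the changes. In rejecting against accepted kidney it was 2 without accepted replicate 1 and 3 without accepted replicate 3 or rejecting replicate 2. For the Cd4 classes it was 6 to 7, 2 to 3 and 3 in kidney and 6, 3 to 4 and 0 to 2 in spleen at 1, 3 and 24 weeks.

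The values that turned over were these. Cd27 in kidney 3 weeks against 1 week was -0.34 with TMM scaling and -0.35 with DESeq2, and in rejecting against accepted kidney -0.57 and -0.56. Tnfsf8 between the 24-week and 3-week kidney labels was 0.15 with TMM scaling, 0.16 with DESeq2 and 0.25 with intron length taken out. Cd40lg in cells with a CD8 UMI was 1.71 between the 24-week and 3-week spleen labels and -2.14 between the 24-week kidney and spleen labels. With strict classes Cd27 was -0.13 and Tnfrsf9 -0.10 in the 1-week kidney, and Icos -0.44 in the matrix labelled spleen 24 weeks. The cause was not tested, apart from the classes themselves, which hold other cells. Thinning to 500 UMIs moved 65 of 81 shares by more than 1 SD, as fewer UMIs give lower shares, 22 moved in cells with a CD8 UMI and no Cd4 UMI, and 6 when all cells were counted.

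No paired analysis was possible because the labels give no replicate numbers that would tie libraries of different tissues or times, while the Cd4 classes were compared within libraries. Depth limits Cd40lg and Tnfsf14, whose means in cells without a Cd4 UMI were under 16 CPM in every condition, and the rejecting spleen, with 726 cells.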
